A study of Homo sapiens
Mus musculus with 24 samples.

Results

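Collagen chains were examined in tumours that hold human cancer cells and mouse stroma side by side. Members were all genes whose symbol is COL, a number, A and a number, in either species. This gave 36 chains among 18880 human genes and 33 among 16667 mouse genes, or 69 of 35547 entries in all, under 40 chain symbols. Both tables held 29 of the symbols, the human table alone held 7 (COL4A3, COL4A6, COL9A1, COL9A2, COL9A3, COL20A1 and COL21A1) and the mouse table alone held 4 (Col5a3, Col6a4, Col6a6 and Col23a1). By structure the host chains were 10 fibrillar, 4 basement-membrane and 19 other chains, and the tumour chains were 9 fibrillar, 6 basement-membrane and 21 other chains.

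Female Rag1-null mice on a B6 background, which lack mature B and T cells, carried subcutaneous tumours of MDA-MB-231, a human triple-negative breast cancer cell line, injected at 14 weeks of age in a mix of Matrigel and collagen I protein. All groups shared the genotype, the cell line and the injected mix. CTRL (n = 4) received a high-fat diet with weekly saline, Chemo (n = 5) the high-fat diet with weekly doxorubicin at 2 mg/kg and cyclophosphamide at 100 mg/kg, MC (n = 5) a high-fat diet with moringa seed concentrate at 0.6% of the diet, and MC + Chemo (n = 6) both, each for 4 weeks; Lean mice (n = 4) stayed on a lean diet without treatment. Every library is named here by its group and mouse number. The library MC + Chemo 5 is MC + Chemo by its title but MC in its group field, and it was kept in MC + Chemo. The model has an innate but no adaptive immune system, and its cancer cells come from a single cell line.

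Collagens are triple helices of chains that each come from their own gene. Fibrillar chains form the tensile cables of connective tissue and are made in bulk by fibroblasts; basement-membrane chains (type IV) form the sheet-like network under epithelium and around vessels; the other chains build beaded filaments (type VI), decorate fibrils (the fibril-associated chains, such as types XII and XIV), make short-chain networks (types VIII and X), anchor epithelium (type VII) or span the cell membrane (types XIII and XVII). Mammary tumours are known for a dense fibrillar stroma, laid down mainly by host cells. Levels are given in CPM, the counts of a gene for every 1000000 counts of that genome, with library totals adjusted by TMM scaling. Host and tumour levels are those of the mouse and the human table. How reads that match both genomes were assigned is not given, so human counts are not shown to come from cancer cells alone. A 3′ library yields about 1 read for each transcript whatever its length, so levels of different chains are compared without a length correction.

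Mouse totals ran from 3664056 to 9892470 counts a library and human totals from 7796231 to 17621273. The line markers VIM, CD44, KRT18 and AXL summed to between 2247 and 8018 CPM, the highest in CTRL 17. All 6 B and T cell markers looked for were missing from the mouse table, whereas Rag1 itself had 156 counts over all libraries, which says nothing of the deleted stretch. CTRL 17 and CTRL 44 stood apart from the other human profiles, with a median Spearman correlation to the others of 0.901 and 0.924 against a median library of 0.974. MC 41 and MC + Chemo 52 stood apart among the mouse profiles (0.891 and 0.916 against 0.9625), and their adipocyte markers summed to 13420 and 12429 CPM against a median of 618. Skeletal muscle markers (7 of 7 present) summed to 5624 CPM in MC 41, 1270 CPM in MC 48, 6215 CPM in MC + Chemo 5 and 9667 CPM in MC + Chemo 43, against a median library of 27.6 CPM and at most 23.2 CPM in CTRL; their part in the host levels of the MC and MC + Chemo groups was not tested. The edgeR treatment estimates printed for chains that CTRL 17 or CTRL 44 moved by more than 1.5 times are given with and without them. In bulk tumours, fewer cells of a type and less RNA per cell cannot be told apart.

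The mouse table held most of the collagen reads. Collagen chains took 2.01% ± 0.569 (SD, n = 24) of mouse reads and 0.365% ± 0.0842 of human reads. The tumour table held 26.1% ± 3.22 of all collagen reads, with a range of 20.7% to 33.5%, although it held 65.2% of all reads. Fibrillar chains led the collagen reads in host and tumour. They took 76.7% ± 4.46 of host collagen reads and 68.7% ± 5.2 of tumour collagen reads, basement-membrane chains 5.32% ± 1.57 and 5.58% ± 1.21, and other chains 18.0% ± 3.21 and 25.7% ± 4.26. Within a library, the fibrillar share was higher in the host in 24 of 24 libraries, by 7.97 ± 4.35 percentage points (two-sided permutation of signs, p = 2e-05, the smallest that 100000 resamples can give, BH 3e-05), and the share of other chains was higher in the tumour in 24 of 24 (permutation p = 2e-05, BH 3e-05). The basement-membrane share was higher in the host in 11 and in the tumour in 13 libraries (permutation p = 0.273, BH 0.273). CTRL 17 was the most fibrillar library in both, at 89.7% in the host and 77.7% in the tumour, with only 0.581% of host collagen reads on basement-membrane chains.

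**Figure D1:**
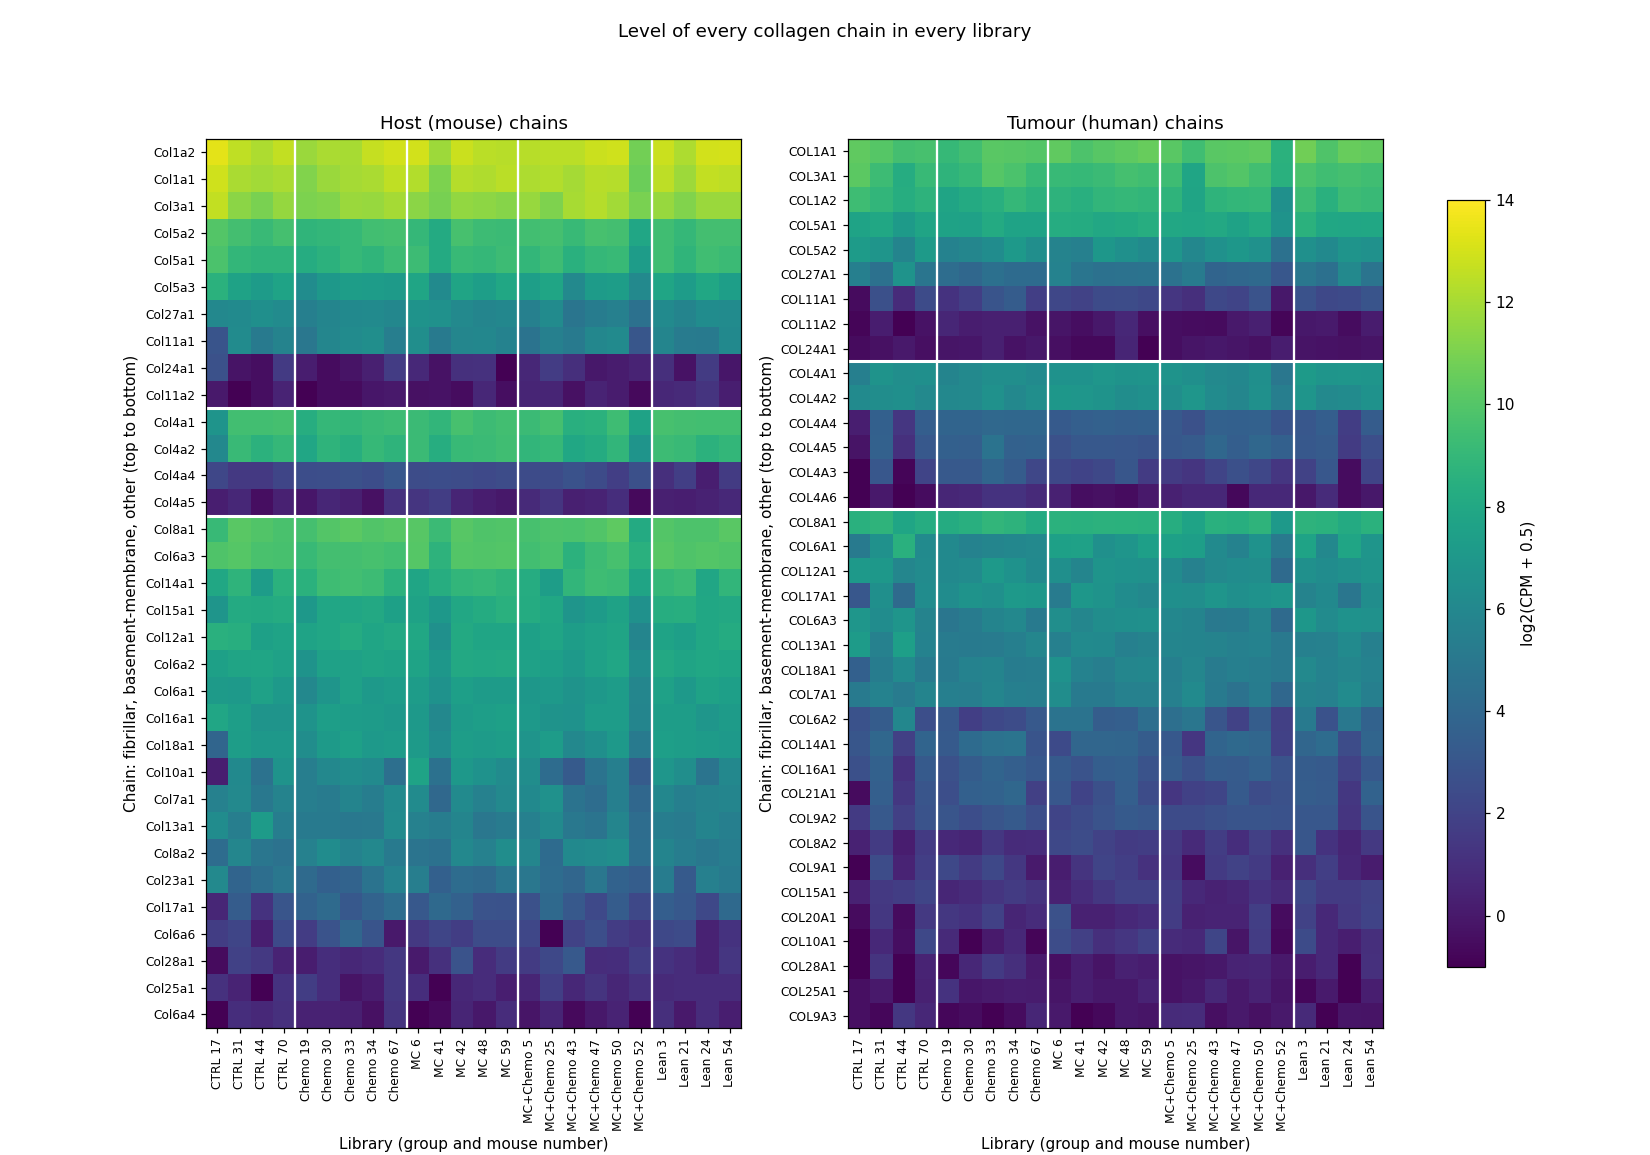
Level of each collagen chain (vertical) in each library (horizontal, ordered by group) as log2(CPM + 0.5), with host chains on the left and tumour chains on the right. Horizontal lines part fibrillar, basement-membrane and other chains and vertical lines part the groups; type I and III chains lead both panels, and CTRL 17 and CTRL 44 are dark in the tumour COL4A3 to COL4A6 entries.

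Among host chains, the type I chains Col1a2 and Col1a1 and the type III chain Col3a1 led, at mean levels of 6054, 4602 and 3144 CPM. Then came Col8a1, a short-chain network former of vessel walls, at 925 CPM, Col6a3, the largest beaded-filament chain, at 802 CPM, Col5a2, which helps set fibril diameter, at 635 CPM, and the basement-membrane chains Col4a1 and Col4a2 at 577 and 435 CPM. Levels in the human (tumour) table were led by COL1A1, COL3A1 and COL1A2 at 1066, 669 and 426 CPM. COL8A1 followed at 348 CPM, COL5A1, a nucleator of fibrils, at 243 CPM, COL6A1 at 119 CPM, and COL4A1 and COL4A2 at 88.6 and 83.7 CPM. In both species the scale ran down to chains near 1 CPM, such as Col6a4 at 0.782 CPM in the host and COL24A1 at 0.373 CPM in the tumour.

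Host fibrillar levels varied as much within groups as between them. Col1a1 was at 7839, 4361, 3906 and 4306 CPM in CTRL 17, 31, 44 and 70. It was at 2286, 3422, 4030, 4301 and 6113 CPM in Chemo 19, 30, 33, 34 and 67, and at 5042, 2125, 5196, 4675 and 5633 CPM in MC 6, 41, 42, 48 and 59. In MC + Chemo the lowest, median and highest Col1a1 levels were 1569, 4734 and 5416 CPM, and Lean 3, 21, 24 and 54 had 5841, 3523, 6243 and 5815 CPM. The groups overlapped throughout, with CTRL 17 highest and MC + Chemo 52 lowest of the 24 libraries. Col3a1 was at 6376, 2693, 2022 and 3107 CPM in CTRL 17, 31, 44 and 70, and at 3052 ± 813 CPM in Chemo, 2593 ± 400 CPM in MC, 3442 ± 1211 CPM in MC + Chemo and 3098 ± 526 CPM in Lean.

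**Figure D2:**
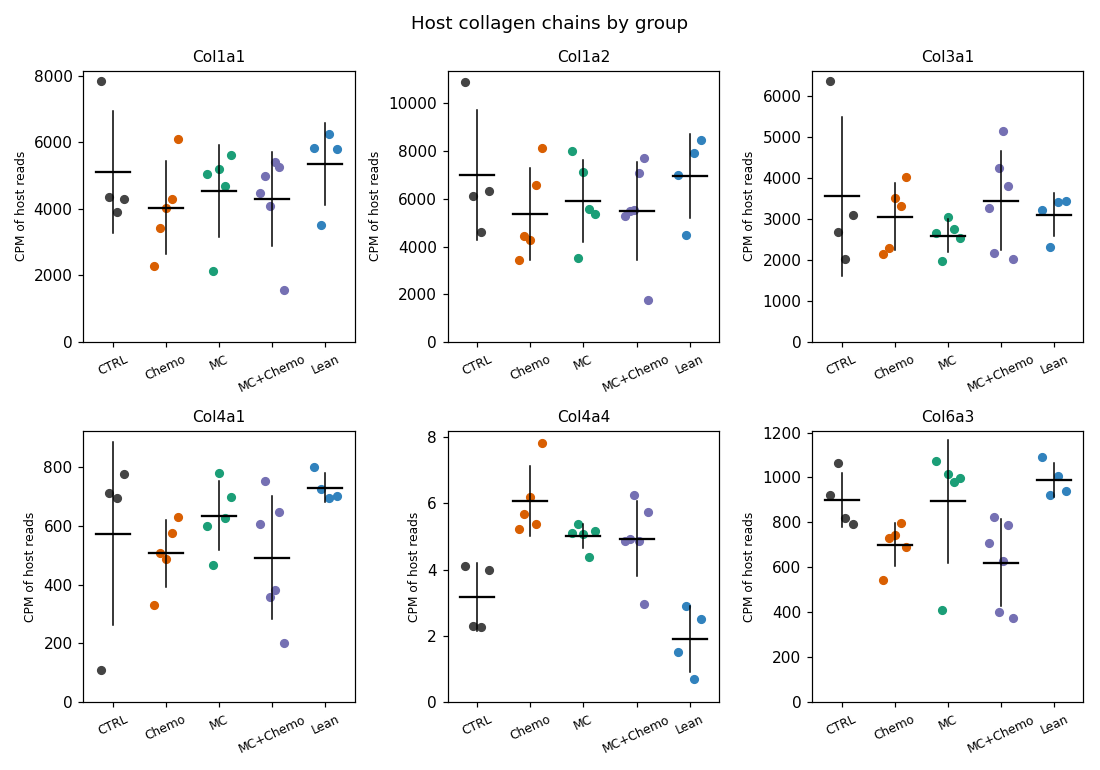
Levels of host Col1a1, Col1a2, Col3a1, Col4a1, Col4a4 and Col6a3 in CPM of mouse reads (vertical) by group (horizontal). Points are libraries, horizontal bars are group means and vertical bars are 1 SD, stopped at 0; CTRL 17 tops the fibrillar panels and is lowest for Col4a1 at 110 CPM.

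Host Col4a1, the main basement-membrane chain around vessels, was at 110, 711, 694 and 777 CPM in CTRL 17, 31, 44 and 70. Chemo 19, 30, 33, 34 and 67 had 331, 509, 486, 574 and 629 CPM, and MC 6, 41, 42, 48 and 59 had 598, 468, 780, 626 and 699 CPM. Apart from CTRL 17, the lowest Col4a1 was 202 CPM in MC + Chemo 52. Its partner Col4a2 gave 63.0 and 106 CPM in the same libraries, against group means of 352 to 545 CPM. The endothelial marker list (7 of 7 genes present) summed to 82.6 CPM in CTRL 17 and 121 CPM in MC + Chemo 52, and to between 299 and 737 CPM elsewhere; its part in the Col4a1 levels was not tested. Col18a1, the source of endostatin, was also lowest in CTRL 17, at 14.2 CPM.

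The tumour share of a chain's counts differed greatly between chains. Of the 29 chains in both tables, 7 had more human than mouse counts and 4 exceeded the 65.2% human share of all reads. These 4 were COL4A5 (94.9% human), COL17A1 (94.1%), COL4A4 (81.1%) and COL13A1 (70.8%). COL4A4 and COL4A5 are minor basement-membrane chains, COL17A1 spans the membrane at hemidesmosomes, the junctions that hold epithelial cells to their basement membrane, and COL13A1 is another membrane-spanning chain. COL7A1, the anchoring fibril of the same junction, had 63.0% human counts, COL6A1 60.7% and the scarce COL11A2 57.7%. At the other end COL15A1, COL10A1 and COL14A1 had 1.70%, 4.70% and 4.96% human counts. The type I chains differed from each other, with 29.9% of COL1A1 and 11.5% of COL1A2 counts being human, although both chains are needed for the usual type I helix.

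**Figure D3:**
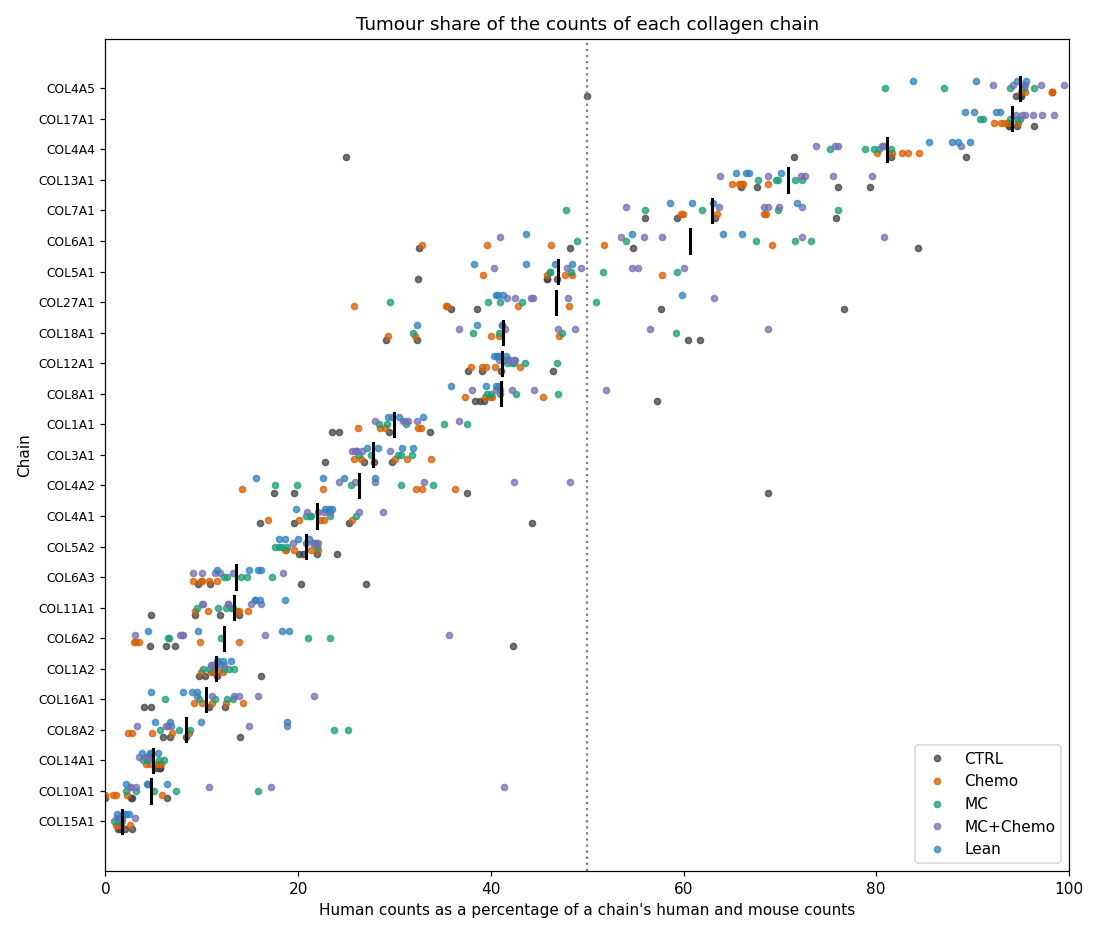
Human counts as a percentage of human and mouse counts of the same chain (horizontal), for the chains (vertical) with 1000 counts or more. Points are libraries coloured by group, black bars are the pooled share and the dotted line is 50%; shares fall from 94.9% for COL4A5 to 1.70% for COL15A1.

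Several shares were almost fixed over the libraries. COL14A1 ran only from 3.48% to 6.12% human, COL12A1 from 37.6% to 46.9% and COL5A2 from 17.6% to 24%, whereas COL6A1 ran from 32.6% to 84.4%. In the limma test of the tumour-to-host ratio across 11177 genes, 0 of 28 chains passed an adjusted p of 0.05 in any of 7 comparisons. The background was 0.197% of genes in MC + Chemo against CTRL, 0.0179% for chemotherapy averaged over MC and no MC, and 0% in the other comparisons. Averaged over MC, the ratio of COL6A3 fell by 0.57 on the log2 scale with chemotherapy before adjustment (SE 0.16, limma adjusted p = 0.227). In the same contrast the COL4A5 ratio rose by 1.31 (SE 0.41, limma adjusted p = 0.267), on 134 host counts in all. COL6A3 had 1364, 733, 1336 and 743 human and 5357, 6006, 3613 and 6981 mouse counts in CTRL 17, 31, 44 and 70. The human share of COL6A3 was 16.9% ± 8.22 in CTRL and 10.3% ± 0.921 in Chemo. It was 14.2% ± 1.96 in MC and 12.3% ± 3.32 in MC + Chemo. The part of CTRL 17 and CTRL 44 in the COL6A3 fall was not tested.

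For most chains, the human and mouse levels moved together from library to library. Over 24 chains at 1 CPM or more in both genomes, the median Pearson r of log2 levels was 0.77, with a range of 0.19 (COL8A2) to 0.93 (COL14A1). Across all 10440 same-symbol genes at that level the median was 0.40, and 15 of the 24 chains against 21.3% of genes had r over 0.7. After Benjamini-Hochberg adjustment over 42 pairs, 20 of the 24 had both the Pearson and the Spearman permutation p under 0.05. COL14A1 gave r = 0.93 (permutation p = 1e-05, the smallest that 100000 resamples can give, BH 2.3e-05) and rho = 0.91 (permutation p = 1e-05, BH 4.2e-05), with r = 0.90 without the 2 most distant libraries. COL1A1 gave r = 0.79 (permutation p = 3e-05, BH 5.5e-05) and rho = 0.77 (permutation p = 7e-05, BH 0.000155), with r = 0.56 without the 2 most distant libraries. The same omission lowered r from 0.51 to 0.3 for COL4A2, from 0.47 to 0.26 for COL6A1 and from 0.66 to 0.28 for COL8A1. It raised r from 0.45 to 0.66 for COL4A4 and from 0.8 to 0.82 for COL15A1. With counts scaled to the total of both genomes, r was 0.97 for COL14A1 and 0.93 for COL1A1. On that scale r ran from 0.11 (COL6A2) to 0.98 (COL5A2 and COL12A1). The sources used here do not give how reads that match both genomes were assigned; both tables come from the same libraries, and the part of shared sequence in these values was not tested.

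Most pairs of chains that share a helix were likewise correlated, and so were COL1A1 and COL3A1, which belong to different helices. Of 12 listed pairs, including COL1A1 with COL3A1 in each genome, 11 had both adjusted p-values under 0.05. COL1A1 with COL3A1 gave r = 0.69 in the host and r = 0.72 in the tumour. How many of all gene pairs within a genome pass was not counted, so the count is not particular to helix partners. Host Col1a1 with Col1a2 gave r = 0.94 (permutation p = 1e-05, BH 2.3e-05) and rho = 0.87 (permutation p = 1e-05, BH 4.2e-05), with r = 0.89 without the 2 most distant libraries. Tumour COL6A1 with COL6A2, neighbours in the human RefSeq annotation (GRCh38.p14), gave r = 0.96 (permutation p = 1e-05, BH 2.3e-05) and rho = 0.96 (permutation p = 1e-05, BH 4.2e-05), with r = 0.95 without the 2 most distant. The exception was tumour COL5A1 with COL5A2, at r = 0.38 (permutation p = 0.0696, BH 0.0750) and rho = -0.01 (permutation p = 0.974, BH 0.974), and r = -0.24 without MC + Chemo 52 and CTRL 44.

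The question put to the treated groups was whether chemotherapy, MC or both changed collagen message in host or tumour. By edgeR, 30 of the 33 host chains and 33 of the 36 tumour chains passed the filter on low counts; Col11a2, Col4a5 and Col6a4 in the host and COL11A2, COL24A1 and COL25A1 in the tumour did not. Across 7 comparisons in each genome, 1 chain passed an adjusted p of 0.05, tumour COL13A1 in MC + Chemo against CTRL.

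Tumour COL13A1 was at 152, 47.6, 176 and 50.2 CPM in CTRL 17, 31, 44 and 70. The lowest, median and highest MC + Chemo levels were 33.4, 50.6 and 57.2 CPM. Chemo 19, 30, 33, 34 and 67 had 36.7, 34.6, 37.1, 44 and 57.4 CPM, and MC 6, 41, 42, 48 and 59 had 45.9, 72.0, 69.5, 44.9 and 52.1 CPM. Only CTRL 17 and CTRL 44 stood above the treated libraries; CTRL 31 and CTRL 70 lay inside their range. The edgeR log2 fold change in MC + Chemo was -1.14 (SE 0.30, adjusted p = 0.0483), against a background of 2.09% of 16434 genes. Without CTRL 17 and CTRL 44 together it was -0.01 (edgeR adjusted p = 0.990), and the call was also lost when CTRL 17, CTRL 44 or any single MC + Chemo library was left out. Over all alternatives its edgeR or DESeq2 adjusted p ran from 0.0114 to 0.990.

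**Figure D4:**
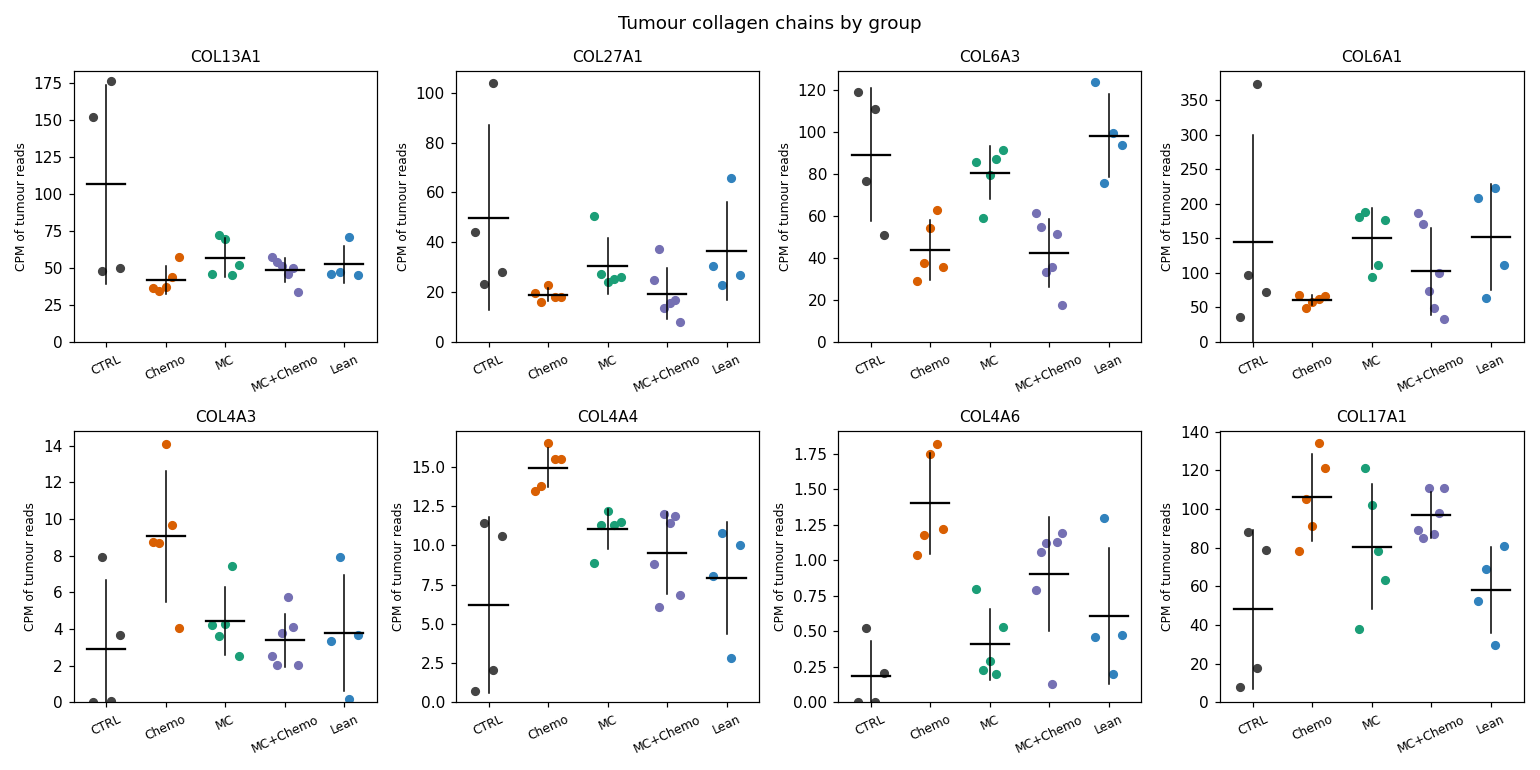
Levels of 8 tumour chains in CPM of human reads (vertical) by group (horizontal). Points are libraries, horizontal bars are group means and vertical bars are 1 SD, stopped at 0; CTRL 17 and CTRL 44 are the highest 2 points for COL13A1 and the lowest 2 CTRL points for COL4A3, COL4A4 and COL17A1.

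Chemotherapy-treated tumours had lower levels of COL6A3, a beaded-filament chain, than most untreated tumours, but not past the edgeR threshold. COL6A3 was at 119, 76.6, 111 and 50.8 CPM in CTRL 17, 31, 44 and 70, and at 85.9, 59.3, 79.8, 87.2 and 91.3 CPM in MC 6, 41, 42, 48 and 59. Chemo 19, 30, 33, 34 and 67 had 28.9, 37.4, 54.1, 63.0 and 35.8 CPM. MC + Chemo had a lowest, median and highest level of 17.6, 43.5 and 61.6 CPM, and Lean 3, 21, 24 and 54 had 124, 75.9, 99.7 and 94.0 CPM. The groups with and without chemotherapy overlapped through CTRL 70 and MC 41. Averaged over MC and no MC, the edgeR log2 fold change was -0.98 (SE 0.21, adjusted p = 0.0853) and the DESeq2 adjusted p was 0.0027. Without CTRL 17 and CTRL 44 it was -0.73 (edgeR adjusted p = 0.428). In the same contrast the edgeR estimate for host Col6a3 was -0.45 on the log2 scale (SE 0.18, adjusted p = 0.825).

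The other type VI chains had wide spread in the tumour. COL6A1 was at 35.9, 97.1, 374 and 73.0 CPM in CTRL 17, 31, 44 and 70, and between 49.6 and 68.3 CPM in Chemo. MC had 93.5 to 188 CPM and MC + Chemo 33.5 to 186 CPM, so only Chemo was tightly grouped. The averaged log2 fold changes were -0.91 (SE 0.35, edgeR adjusted p = 0.187) for COL6A1 and -1.18 (SE 0.46, edgeR adjusted p = 0.193) for COL6A2. CTRL 44 held 59.9 CPM of COL6A2 against 5.67 to 9.83 CPM in the other CTRL libraries. Without CTRL 44 the averaged estimates were -0.37 for COL6A1 (edgeR adjusted p = 0.543) and -0.43 for COL6A2 (edgeR adjusted p = 0.612).

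COL27A1, a fibrillar chain best known from cartilage, was at 44.2, 23.4, 104 and 27.9 CPM in CTRL 17, 31, 44 and 70. Chemo had 15.9 to 22.9 CPM, below every CTRL library, and MC + Chemo had a lowest, median and highest level of 8.05, 16.4 and 37.3 CPM. Its averaged log2 fold change was -1.03 (SE 0.27, edgeR adjusted p = 0.106, DESeq2 adjusted p = 0.0199) and -0.55 without CTRL 17 and CTRL 44 (edgeR adjusted p = 0.589). Host Col27a1 was at 63.9, 70.8, 86.7 and 74.3 CPM in CTRL, and at a lowest, median and highest of 23.7, 42.1 and 73.9 CPM in MC + Chemo. The host log2 fold change was -0.79 (SE 0.26, edgeR adjusted p = 0.245) in MC + Chemo against CTRL and -0.57 (SE 0.18, edgeR adjusted p = 0.615) on average.

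Without MC, the minor basement-membrane chains of the tumour had higher mean levels in Chemo than in CTRL; with MC, COL4A5 and COL4A6 had higher and COL4A3 and COL4A4 lower mean levels in MC + Chemo than in MC. COL4A3 and COL4A4, and COL4A5 and COL4A6, lie next to each other in the human annotation and form networks of specialised epithelia. COL4A6 had 0, 5, 0 and 3 counts in CTRL 17, 31, 44 and 70, or 0 to 0.523 CPM. Chemo 19, 30, 33, 34 and 67 had 10, 11, 16, 17 and 18 counts, or 1.04 to 1.82 CPM, above every CTRL library. MC had 0.199 to 0.794 CPM. MC + Chemo had 0.131 to 1.19 CPM and overlapped CTRL through MC + Chemo 47, with 1 count. The averaged log2 fold change was 2.08 (SE 0.44, edgeR adjusted p = 0.0853, DESeq2 adjusted p = 0.00159), at a level so low that the library depth limits it. Without CTRL 17 and CTRL 44 it was 1.61 (edgeR adjusted p = 0.274).

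COL4A3 was at 0, 7.94, 0.0831 and 3.69 CPM in CTRL 17, 31, 44 and 70 and at 8.73, 8.69, 14.1, 9.65 and 4.06 CPM in Chemo 19, 30, 33, 34 and 67. COL4A4 was at 0.699, 11.4, 2.08 and 10.6 CPM in CTRL and at 13.5 to 16.5 CPM in Chemo, above every CTRL library. In MC, COL4A3 was at 2.51 to 7.46 CPM and COL4A4 at 8.87 to 12.2 CPM. In MC + Chemo, COL4A3 was at 2.03 to 5.76 CPM and COL4A4 at 6.10 to 12 CPM, so the MC and MC + Chemo groups overlapped for both. The edgeR log2 fold changes in Chemo against CTRL were 1.64 (SE 0.75, adjusted p = 0.249) for COL4A3 and 1.28 (SE 0.46, adjusted p = 0.164) for COL4A4. They were 0.64 for COL4A3 and 0.45 for COL4A4 without CTRL 17 and CTRL 44 (edgeR adjusted p = 1 for both). COL4A3 was lower in MC + Chemo than in Chemo by an edgeR log2 fold change of -1.43 (SE 0.65, adjusted p = 0.449). For COL4A5 the averaged estimate was 1.03 on the log2 scale (SE 0.35, edgeR adjusted p = 0.151), and 0.60 without CTRL 17 and CTRL 44 (edgeR adjusted p = 0.499). Mean COL4A5 levels were 5.55 CPM in CTRL, 14.6 CPM in Chemo, 7.50 CPM in MC and 11.9 CPM in MC + Chemo.

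COL17A1 followed the same libraries. It was at 7.86, 87.9, 17.6 and 78.7 CPM in CTRL 17, 31, 44 and 70, at 78.3 to 134 CPM in Chemo and at 85.1 to 111 CPM in MC + Chemo, so CTRL 31 and CTRL 70 lay in the treated range. The averaged log2 fold change was 0.70 (SE 0.31, edgeR adjusted p = 0.247), and 0.30 without CTRL 17 and CTRL 44 (edgeR adjusted p = 0.659). Among pairs picked after their values were seen, COL4A4 with COL17A1 gave r = 0.90 (permutation p = 3e-05, BH 5.5e-05) and rho = 0.62 (permutation p = 0.00146, BH 0.00236), with r = 0.67 without the 2 most distant libraries, CTRL 17 and CTRL 44. With Lean 24 left out as well, r was 0.39. COL4A3 with COL4A4 gave r = 0.92 (permutation p = 1e-05, BH 2.3e-05) and rho = 0.81 (permutation p = 1e-05, BH 4.2e-05), with r = 0.87 without the 2 most distant libraries and 0.74 without all 3.

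**Figure D5:**
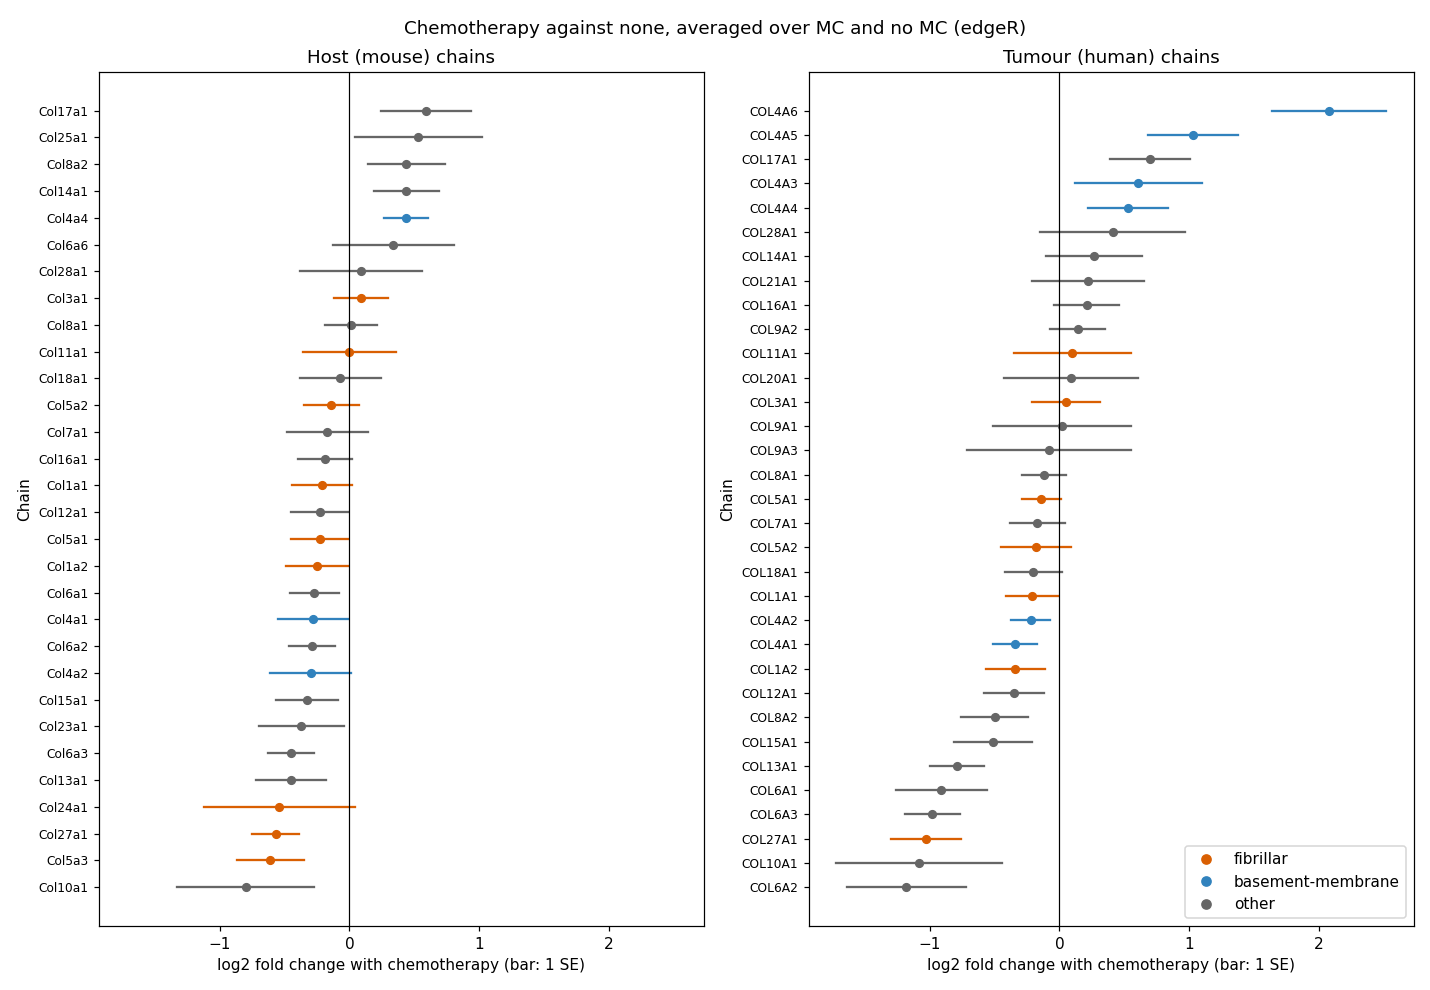
Log2 fold change of each tested chain with chemotherapy, averaged over MC and no MC (horizontal, edgeR), for host chains on the left and tumour chains on the right, ordered by value. Points are estimates coloured by class and bars are 1 SE; tumour COL4A6 (2.08) lies at the right end, COL6A2 (-1.18) at the left, and host values stay within -0.80 and 0.59.

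In Chemo against CTRL, 0 tumour chains passed the edgeR adjusted threshold (background 0%), 10 of 33 had an unadjusted p under 0.05 (background 18.2%), 5 higher and 5 lower, and DESeq2 called 4, COL4A6 higher and COL13A1, COL27A1 and COL6A3 lower (background 3.71%). The median log2 fold change was 1.34 over the 6 basement-membrane chains and -0.12 over the 7 fibrillar chains, against -0.02 over all genes tested. The basement-membrane median lay within the range of the scarce COL4A3 to COL4A6, 1.28 to 2.94. The abundant COL4A1 and COL4A2 were at -0.16 and -0.04, and the summed basement-membrane level differed by 0.14 on the log2 scale. Without CTRL 17 and CTRL 44, COL4A1 was at -0.4 (SE 0.28) and COL4A2 at 0.01 (SE 0.28). The medians were 0.49 over the basement-membrane and -0.15 over the fibrillar chains without CTRL 17 and CTRL 44. Without CTRL 17 alone the fibrillar median was 0.05. In the host, 0 chains were called (background 0%), 5 of 30 had an unadjusted p under 0.05 (background 4.53%) and DESeq2 called 0 (background 0.127%). The host fibrillar chains had a median of -0.35, with 8 of 9 at lower values, against a median of 0 and 50.3% of all genes at lower values. Without CTRL 17, the highest library for Col1a1 and Col3a1, the host fibrillar median was -0.08, with 6 of 9 at lower values.

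In MC + Chemo against CTRL, 7 tumour chains had an unadjusted p under 0.05 (background 22.7%) and DESeq2 called 4, the same 4 chains as in Chemo (background 7.41%). These 2 comparisons share the CTRL libraries. In the host, 0 chains passed the edgeR adjusted threshold (background 0%), 4 had an unadjusted p under 0.05 (background 12.4%) and DESeq2 called 0 (background 1.24%). Averaged over MC and no MC, tumour chains had 0 edgeR calls (background 0%), 8 with an unadjusted p under 0.05 (background 17.6%) and 4 DESeq2 calls, again those 4 (background 2.70%). Host chains had 0 edgeR calls (background 0.0266%), 4 with an unadjusted p under 0.05 (background 5.70%) and 0 DESeq2 calls (background 0.280%).

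MC alone gave 0 edgeR calls in either species (background 0% in both). By unadjusted p, 3 tumour chains (background 10.7%) and 2 host chains (background 11.8%) were under 0.05, and DESeq2 called 0 (backgrounds 0.0669% and 1.68%). Tumour COL5A1 was at 208, 244, 142 and 220 CPM in CTRL 17, 31, 44 and 70 and at 311, 297, 256, 279 and 329 CPM in MC 6, 41, 42, 48 and 59. These groups did not overlap, and the edgeR log2 fold change was 0.52 (SE 0.22, adjusted p = 0.440), or 0.34 without CTRL 17 and CTRL 44 (adjusted p = 0.940). Host Col4a4 was at 4.12, 2.30, 2.27 and 3.98 CPM in CTRL, at 5.22 to 7.82 CPM in Chemo and at 4.39 to 5.37 CPM in MC, with no overlap between CTRL and either group. Its log2 fold changes were 0.91 in Chemo (SE 0.26, edgeR adjusted p = 0.741) and 0.65 in MC (SE 0.26, edgeR adjusted p = 0.334). How many of all genes had no overlap was not counted, in these or the other comparisons, so lack of overlap is only described.

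MC + Chemo against Chemo gave 0 edgeR calls in either species (background 0% in both). A single chain in each species had an unadjusted p under 0.05, COL4A3 in the tumour (background 10.4%) and Col28a1 in the host (background 11.0%), and DESeq2 called 0 (backgrounds 0.103% and 0.326%). Col28a1 was at 0.653 to 2.21 CPM in Chemo and 1.39 to 8.71 CPM in MC + Chemo. It was highest in MC + Chemo 43, which also had the highest skeletal muscle markers. MC + Chemo 5, MC 41 and MC 48, next in these markers, had only 2.49, 1.63 and 1.41 CPM of Col28a1. MC 42 had 6.56 CPM of Col28a1 with 28.5 CPM of muscle markers. The part of muscle in the Col28a1 levels was not tested. The test of whether the chemotherapy effect differed with MC gave 0 edgeR and 0 DESeq2 calls among chains, with 3 tumour chains (background 9.74%) and 2 host chains (background 6.87%) at an unadjusted p under 0.05. The adjusted background was 0% by edgeR in both species and 0.0122% and 0% by DESeq2. All 6 tumour basement-membrane chains had a negative value in this test, with a median of -1.12 against -0.01 over all genes; none passed the threshold. With CTRL 17 and CTRL 44 left out, 5 of the 6 were negative, with a median of -0.55 against -0.04 over all genes.

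Lean against CTRL gave 0 calls by edgeR (background 0% in both species) and by DESeq2 (0.0121% of tumour and 0.00665% of host genes), with 3 tumour chains (background 7.08%) and 2 host chains (background 3.11%) at an unadjusted p under 0.05. Tumour COL4A1 was at 44.5, 102, 86.0 and 89.2 CPM in CTRL and at 143, 113, 118 and 111 CPM in Lean 3, 21, 24 and 54, without overlap; the log2 fold change was 0.59 (SE 0.26, edgeR adjusted p = 0.685), or 0.39 without CTRL 17 (edgeR adjusted p = 0.999). Of the 33 tumour chains, 27 had higher values in Lean, against 7877 of 16588 genes tested. The chains had a median of 0.27 against -0.02 over all genes. Without CTRL 17 and CTRL 44 the median of the chains was 0.06.

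Exact permutation tests were run on 92 pairs of a chain and a group against CTRL. Of these, 15 had a p under 0.05 and 5 had groups apart. The pairs include tumour COL13A1, COL4A3, COL4A6 and COL6A3 and host Col27a1, Col28a1 and Col4a4. Those chains were named for a small p in the same libraries, so both counts are descriptions and no independent test. The share of all genes with groups apart was not counted for any comparison. Among chains named for their level, the groups were apart for tumour COL5A1 in MC (two-sided exact permutation p = 0.00794, the smallest that 4 against 5 libraries allow) and tumour COL4A1 in Lean (exact permutation p = 0.0286, the smallest that 4 against 4 allow). With overlapping groups, tumour COL4A1 and COL4A2 in MC gave exact permutation p = 0.0238 and 0.0397, and host Col6a3 in Chemo 0.0238. These p-values are unadjusted. Those of the pairs apart stand beside the edgeR values over all genes given above. Tumour COL4A6 and host Col4a4 were named for a small p in the same libraries, so their lack of overlap with CTRL is a description.

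Few of the genes that modify, cross-link or bind collagen passed the test. Of 18 modification and folding genes, 17 were tested in the tumour, and in MC + Chemo against CTRL 1 rose and 0 fell by edgeR (background 2.09%). It was P4HB, the disulfide isomerase that is also a subunit of collagen prolyl 4-hydroxylase. P4HB was at 260, 352, 239 and 358 CPM in CTRL 17, 31, 44 and 70 and at 411 to 491 CPM in MC + Chemo, with no overlap (log2 fold change 0.52, SE 0.12, edgeR adjusted p = 0.0386). Among 6 tested tumour receptors 1 fell, ITGA10, a collagen-binding integrin chain (log2 fold change -3.62, SE 0.64, edgeR adjusted p = 0.0305). ITGA10 was at 5.94, 2.61, 31.8 and 2.53 CPM in CTRL 17, 31, 44 and 70 and at 0.198 to 1.45 CPM in MC + Chemo, so CTRL 44 gave most of the CTRL mean. Without CTRL 17 and CTRL 44 the log2 fold changes were 0.30 for P4HB (edgeR adjusted p = 0.368) and -1.55 for ITGA10 (edgeR adjusted p = 0.299). Without CTRL 44 alone they were 0.43 (edgeR adjusted p = 0.0981) and -2.08 (edgeR adjusted p = 0.0730), and without CTRL 17 alone 0.45 (edgeR adjusted p = 0.143) and -3.83 (edgeR adjusted p = 0.105). Both calls were also lost without MC + Chemo 47 or MC + Chemo 52, and that of P4HB without MC + Chemo 5, 43 or 50. DESeq2 also called P4HA2, a catalytic subunit of the same hydroxylase, at 0.61 (SE 0.16, edgeR adjusted p = 0.0513, DESeq2 adjusted p = 0.0119), against a DESeq2 background of 7.41%. P4HA2 was at 52.2, 67.7, 35.2 and 68.1 CPM in CTRL 17, 31, 44 and 70 and at 76.0 to 105 CPM in MC + Chemo. The part of the low CTRL 17 and CTRL 44 levels in this P4HA2 call was not tested. Of 15 tested processing and cross-linking genes in MC + Chemo against CTRL, 0 were called by edgeR or DESeq2 and 2 had an unadjusted p under 0.05 (background 22.7%), both lower. In Chemo against CTRL edgeR called 0 genes of the 3 lists, from 17 modification, 15 processing and 6 receptor genes tested. DESeq2 called P4HB higher and COLGALT2, a collagen glycosyltransferase, LOXL1, a cross-linking lysyl oxidase, and ITGA10 lower (background 3.71%). COLGALT2 was at 4.63, 0.941, 22.8 and 1.57 CPM in CTRL 17, 31, 44 and 70, and at most 2.6 CPM in Chemo. LOXL1 was at 58.7, 42.4, 88.5 and 35.1 CPM in the same CTRL libraries, and at most 35.8 CPM in Chemo. CTRL 70 lay inside the Chemo range for COLGALT2, LOXL1 and P4HB, whereas ITGA10 was higher in every CTRL library than in Chemo. The part of CTRL 17 and CTRL 44 in these DESeq2 calls was not tested. In the host, 0 of 18 modification, 14 processing and 9 receptor genes passed the edgeR or DESeq2 threshold in any comparison; in each comparison at most 1 gene of a list had an unadjusted p under 0.05.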

How the data were processed

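RNA of 24 xenograft tumours was sequenced by the authors as QuantSeq 3′ libraries. The authors deposited raw counts per gene, made with BlueBee software, in a table for each genome. They also deposited normalized counts, a signal obtained by dividing each count by a DESeq2 size factor (version 1.22.2 in the submitters' processing notes, which name GRCm38 for the mouse); the human build and the handling of reads that match both genomes are not given in the sources used here. Groups came from sample titles, and 0 columns were left unused for want of a sample. No 2 libraries of a group (47 pairs) were identical. Each title carries its own number, read here as the mouse; p-values measure the spread between these libraries.

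Raw counts were tested with edgeR 4.0.16 (quasi-likelihood, TMM scaling, filterByExpr; R 4.3.3) on the 20 high-fat libraries, and on all 24 for Lean. A call was a Benjamini-Hochberg adjusted p under 0.05 over all genes. DESeq2 1.42.0 was an alternative. The log2 ratio of human to mouse CPM, each with 0.5 added, was tested with limma 3.58.1. Correlations and exact permutations used log2(CPM + 0.5) and numpy 2.4.6, scipy 1.17.1 and pandas 2.3.3 under Python 3.11.15, and plots used matplotlib 3.10.9. Scripts were tested on simulated data. The precision is limited by the number of mice and, for chains near 1 CPM, by depth.

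Members and lists were chosen with earlier results of these data known. Named by rule were, in each genome, the 2 highest chains of each class and the next up to 8, every called chain, and the chain with the smallest p in each comparison. Tumour COL4A4, COL4A5, COL6A2, COL17A1 and COL27A1, other chains cited for an extreme level or share, and 6 of the 42 correlated pairs were picked after their values were seen. Alternatives were other scalings, filters, tests, fits, pseudocounts and libraries left out.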

Additional observations from a re-analysis of the deposited data

Results flagged for a closer look

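In the 23 chains named by rule, 115 sets of libraries (a chain in a group) were searched for a library far from the rest of its group by Dixon's test at 95%, and 10 were found; chance gives about 1 in 20. Host Col1a1 gave 4 of them, 7839 CPM in CTRL 17 (others 3906 to 4361), 2125 CPM in MC 41 (others 4675 to 5633), 1569 CPM in MC + Chemo 52 (others 4090 to 5416) and 3523 CPM in Lean 21 (others 5815 to 6243). Host Col4a1 was at 110 CPM in CTRL 17 (others 694 to 777) and host Col6a3 at 410 CPM in MC 41 (others 979 to 1072). In the tumour, COL13A1 was at 71.0 CPM in Lean 24 (others 45.2 to 46.9). COL5A1 was at 292 CPM in Chemo 33 (others 193 to 211) and at 381 CPM in Lean 3 (others 235 to 249). COL4A6 was at 0.131 CPM in MC + Chemo 47 (others 0.793 to 1.19). CTRL 17, MC 41 and MC + Chemo 52 gave 5 of the 10; MC 41 and Lean 3 were among the libraries with an added RNA cleanup.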

How the results depend on the processing

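The count of tumour chains called in MC + Chemo against CTRL (1 by edgeR) was 0 with median-of-ratios scaling, with scaling by the total of both genomes, without a filter on low counts, with only the 2 groups compared, without CTRL 17 and CTRL 44, and without MC 41 and MC + Chemo 52. It was 4 by DESeq2 and with all 24 libraries fitted, and 2 with MC + Chemo 5 placed in MC. Leaving out 1 library gave 0 to 5. It was 0 without CTRL 17, CTRL 44 or MC + Chemo 5, 43, 47, 50 or 52, 5 without CTRL 31, 3 without CTRL 70 and 2 without MC + Chemo 25. In Chemo against CTRL and in chemotherapy averaged over MC, DESeq2 called 4 against 0 by edgeR. Leaving out 1 library gave 0 to 8 in the former (8 without CTRL 31, 4 without CTRL 70) and 0 to 5 in the latter (5 without CTRL 31, 4 without CTRL 70). For the tumour-to-host ratio in Chemo against CTRL it gave 0 to 1 (COL27A1, without CTRL 31). The cause of these shifts was not tested.

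Without CTRL 17 and CTRL 44, an alternative chosen after seeing the data, the log2 fold change of COL13A1 turned positive in the host in Chemo (0.04), MC (0.04), MC + Chemo (0.03) and Lean (0.09) and in the tumour in MC (0.22) and Lean (0.10); its interaction in the tumour turned to -0.02. COL5A1 with COL5A2 in the tumour turned to r = -0.24 without the 2 most distant libraries. With equal weight to each chain in place of summed counts, tumour basement-membrane levels against CTRL moved from 0.14 to 1.24 (log2) in Chemo, 0.46 to 0.85 in MC and 0.02 to 0.78 in MC + Chemo. The other tumour chains moved from -0.18 to 0.12 in Chemo, 0.09 to 0.37 in MC, -0.33 to 0.01 in MC + Chemo and 0.06 to 0.33 in Lean. Of the estimates for single genes and correlations under these alternatives, 1218 kept their direction and side of the threshold, 48 passed it where the reported fit did not, 40 no longer passed it and 8 turned, those given above. Equal weight raises the part of the scarce COL4A3 to COL4A6. Summed class levels differed from CTRL by less than 1.5 within-group SDs and counting COL15A1 and COL18A1 as basement-membrane moved none of them by 1 SD. No paired analysis was possible because the groups share no replicate numbers.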
